A study of Mus musculus with 4 samples.

Results

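The genes described here are 4 genes of insulin-like growth factor (IGF) binding and signalling in an Erbb2-transfected fibroblast line: Igfbp4 and Igfbp6, which encode secreted IGF binding proteins, Igf1r, which encodes the IGF type 1 receptor, and Irs1, which encodes a cytoplasmic substrate of that receptor and of the insulin receptor. They were found by symbol in the array's platform annotation, as 4 of 9930 named genes. Their symbols were carried by 8 probes, of which 7 had a value in the rows used. In the lower part of the table, the values of arrays 2 to 4 were taken from rows further up, after a row offset against array 1 that had been seen earlier in these data, and 2300 rows where that offset is unclear were left out. The probes that gave Igfbp4, Igfbp6 and Irs1 their values lie in the first 6000 rows, which were read as they stand. All 4 genes had a value on all 4 arrays, as did 6327 genes in the whole series.

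NIH3T3 cells transfected with Erbb2, and labelled as overexpressing it, were compared with untransfected NIH3T3 cells of normal Erbb2 expression. NIH3T3 is an established line of mouse embryonic fibroblasts, and the ERBB2 protein is a growth factor receptor with tyrosine kinase activity. Total RNA of both was hybridised together on each of 4 two-colour arrays, with the transfected sample in Cy5 on arrays 1 and 2 and in Cy3 on arrays 3 and 4. By the design text the arrays are 4 technical repeats, so there was 1 sample per line, and every SD, interval and p-value below covers the spread between arrays and not between cultures or transfections. The labels do not say which vector or promoter drove Erbb2 or whether the transfected line was 1 clone. Effects of Erbb2 and other differences between both lines therefore cannot be told apart.

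IGF1 and IGF2 act through the IGF type 1 receptor, a tyrosine kinase that phosphorylates the insulin receptor substrates, which in turn recruit phosphoinositide 3-kinase and adaptors of the RAS pathway. The binding proteins hold IGFs outside the cell and control how much of them reaches the receptor. IGFBP4 is known mainly as an inhibitor of IGF action that is cut by the protease pappalysin, and IGFBP6 binds IGF2 in preference to IGF1. Fibroblasts in culture secrete several of these binding proteins, and NIH3T3 cells have been widely used to study growth signals from receptor tyrosine kinases.

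All values are log2 ratios of the transfected over the untransfected line, a direction that the files do not state and that was taken as likely. All signs would turn together if it were the other way. A negative value stands for a lower level in the transfected line. The ratios hold no level per line, so the amounts of 2 genes are not compared, and fewer cells with a transcript and less transcript per cell cannot be told apart. Of the 4 genes, Igfbp4 and Igfbp6 lay below 0 on every array, Igf1r lay below 0 on 3 of 4 arrays and Irs1 lay just above 0 on every array. The value of Igf1r on array 2 rests in part on a probe value equal to the commonest one of that array. Across all genes tested, 13.0% lay below 0 on all 4 arrays and 9.58% above 0 on all 4. None of the 4 genes passed the test over all genes, in which limma called 0 of 6327 (0%) at an adjusted p under 0.05. At an unadjusted p under 0.05, 2 of the 4 were lower, namely both binding proteins, where 7.49% of all genes were lower at that level. Both also had a mean of -1 or lower, which 4.87% of all genes combined with a value below 0 on all 4 arrays.

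**Figure D1:**
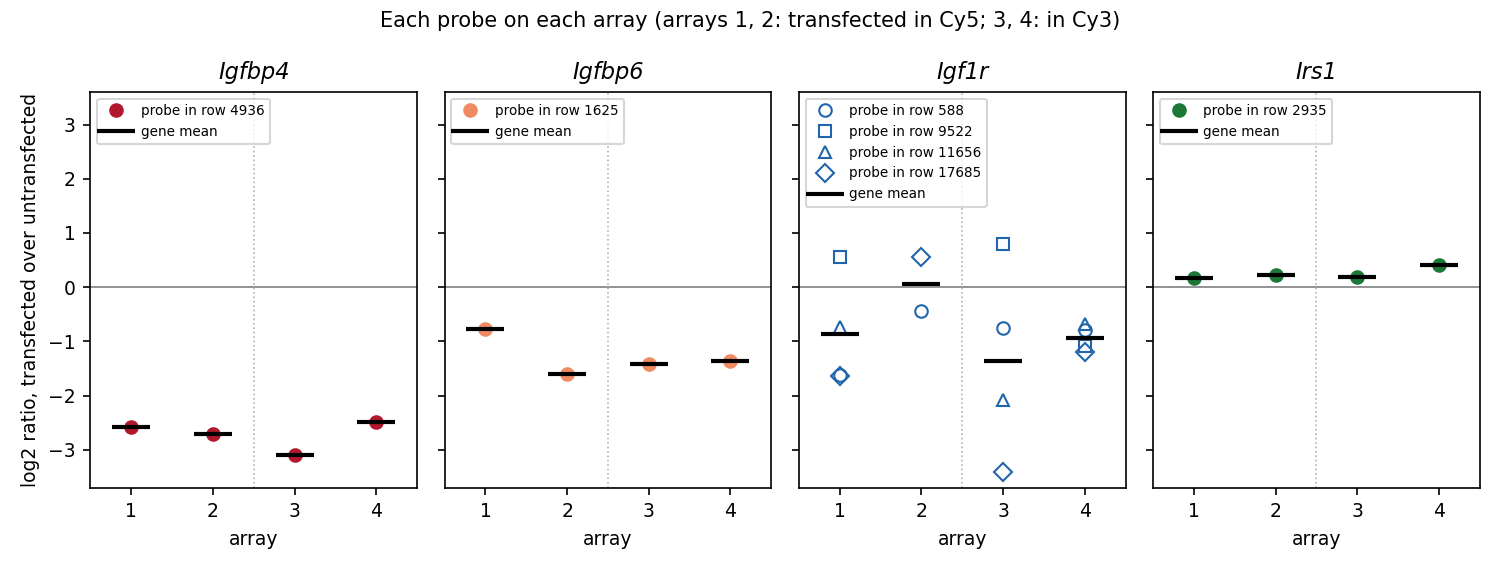
Log2 ratio of each probe (y axis, transfected over untransfected) on arrays 1 to 4 (x axis) for the 4 genes; points are probes, black bars are the mean over the probes of a gene, and the dotted line parts the dye orientations. Igfbp4 stays between -3.10 and -2.48, Igfbp6 between -1.60 and -0.77 and Irs1 between 0.18 and 0.40, while the probes of Igf1r spread from -3.40 to 0.80.

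Igfbp4 was the gene furthest below 0 among the 4. Its 1 probe, in row 4936 of the table, had -2.59 and -2.70 on the arrays with the transfected sample in Cy5, and -3.10 and -2.48 on those with it in Cy3. All 4 arrays thus lay within a range of 0.62 and far below 0. The mean was -2.72 ± 0.27 (SD over 4 arrays), a 6.58-fold lower level in the transfected line, with a 95% interval of -3.45 to -1.98 from limma. Its adjusted p was 0.142 (limma, over all genes), and its unadjusted p of 0.00018 was number 8 in order of size among the 6327 genes. There were 19 genes with a mean this low, Igfbp4 included, and 1 of these, Igfbp4 itself, had a spread no larger than that of Igfbp4.

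Igfbp6, too, had 1 probe, in row 1625. It had -0.77 and -1.60 with the transfected sample in Cy5, and -1.41 and -1.36 with it in Cy3. Array 1 lay nearest to 0, and all 4 arrays lay below it. The mean was -1.28 ± 0.36 (SD over 4 arrays), a 2.43-fold lower level in the transfected line, with a 95% interval of -2.05 to -0.52. The adjusted p was 0.32 and the unadjusted p 0.0072 (limma). A mean this low was found for 253 genes, and 13 of these, Igfbp6 included, had a spread no larger than that of Igfbp6. The log2 ratio of Igfbp4 minus that of Igfbp6 lay between -1.82 and -1.11 on the 4 arrays, so Igfbp4 had the lower ratio on each.

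The stretches upstream of both binding protein genes are shown because these were the 2 members that lay below 0 on every array. Each is the 250 bases before an annotated transcript start (RefSeq, GRCm38.p6), 5′ to 3′ on the strand of the gene, and capitals mark the letters of a searched motif. The stretch of Igfbp4 is at chr11:99040994-99041243 on the plus strand (RefSeq also places a start of the gene further upstream), and that of Igfbp6 at chr15:102143936-102144185 on the plus strand.
Igfbp4: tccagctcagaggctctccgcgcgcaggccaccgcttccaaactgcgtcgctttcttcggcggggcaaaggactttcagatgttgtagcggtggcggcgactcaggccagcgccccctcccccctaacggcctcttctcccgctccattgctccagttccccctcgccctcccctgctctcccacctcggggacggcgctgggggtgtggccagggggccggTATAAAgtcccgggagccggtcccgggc
Igfbp6: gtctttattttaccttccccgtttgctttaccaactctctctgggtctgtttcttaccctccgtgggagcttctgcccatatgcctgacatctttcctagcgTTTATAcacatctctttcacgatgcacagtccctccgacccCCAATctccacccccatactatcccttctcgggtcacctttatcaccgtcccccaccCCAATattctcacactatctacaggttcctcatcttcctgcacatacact

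A total of 5 motifs was searched on both strands. These were the TATA box, with the letters TATAAA, and the GC box, with the letters GGGCGG. The CCAAT box was searched by those 5 letters. The site of the transcription factor AP-1 was searched as TGACTCA, and the E-box as CACGTG. No match overlapped another. The Igfbp4 stretch held 1 match, to the TATA box, which begins 28 bases before the start. The Igfbp6 stretch held 3, namely the CCAAT box at 107 and at 50 bases before the start and the TATA box on the other strand at 148. Of 32851 promoter stretches of this length in the table, 12.4% held the TATA box, 32.7% the GC box, 33.8% the CCAAT box, 4.46% the AP-1 site and 6.02% the E-box. The stretches before Igf1r and Irs1 each held 2 matches to the GC box, and that of Irs1 also 1 to the E-box. Both binding protein stretches thus had the TATA box letters in common, in different orientation and at different distances from the start. Their base composition differed, with 69.2% G and C before Igfbp4 and 49.6% before Igfbp6. A match describes the letters only.

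**Figure D2:**
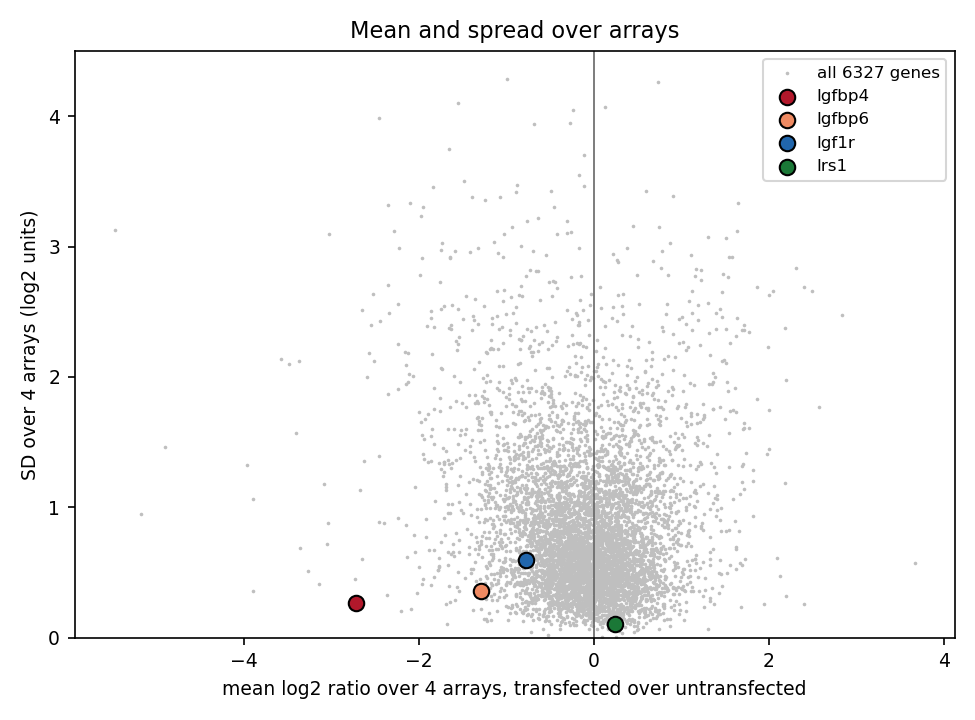
Mean log2 ratio over 4 arrays (x axis) against the SD over the arrays (y axis, log2 units) for all 6327 genes (grey) and the 4 IGF genes (coloured). Igfbp4 lies at a mean of -2.72 with an SD of 0.27, below the median SD of 0.70 of all genes, and Irs1 lies near 0 with an SD of 0.11.

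Igf1r, the receptor gene, had 4 probes, and they did not give 1 picture. The probe in row 588 had -1.62 and -0.44 with the transfected sample in Cy5, and -0.76 and -0.79 with it in Cy3, with a mean of -0.90 ± 0.51 (SD over 4 arrays). The probe in row 17685 had -1.63 and 0.55 with the transfected sample in Cy5, and -3.40 and -1.20 with it in Cy3. The first of these lay below 0 on every array, and the second on all but array 2. The 0.55 of the second on array 2 is also the commonest value of that array (0.548). Whether it is a measured ratio is not known. The probe in row 11656 had no value on array 2 and lay below 0 on the other 3 (-0.73, -2.08 and -0.68). The probe in row 9522, also without a value on array 2, had 0.55, 0.80 and -1.08 on arrays 1, 3 and 4, and was the only one of the 4 with a mean above 0 (0.09).

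The last 3 of these probes lie where the values of arrays 2 to 4 were taken from 3 rows above the probe's own. Averaged over probes, Igf1r had -0.86 and 0.06 with the transfected sample in Cy5, and -1.36 and -0.94 with it in Cy3. The value of array 2 rests on 2 probes and those of the other arrays on 4. On array 2 the probe in row 588 had -0.44, and the one in row 17685 had 0.55, the commonest value of that array. The mean was -0.77 ± 0.60 (SD over 4 arrays), with a 95% interval of -1.57 to 0.02 and an adjusted p of 0.439 (limma). With the rows left as deposited the mean was -0.19, and in the first 6000 rows, which hold 1 of the 4 probes, it was -0.90. The mean of Igf1r thus depended on how the lower rows were read.

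Irs1, which encodes the receptor substrate, had the ratio nearest to 0 and the smallest spread of the 4. Its probe in row 2935 had 0.18 and 0.22 with the transfected sample in Cy5, and 0.18 and 0.40 with it in Cy3. Array 4 was highest, and the other 3 lay close together. The mean was 0.25 ± 0.11 (SD over 4 arrays), with a 95% interval of -0.45 to 0.94 and an adjusted p of 0.747 (limma). The interval is wide beside that SD because limma draws each gene's variance towards that of all genes. A spread this small was rare, as 34 of the 6327 genes, Irs1 included, had an SD no larger. The other probe of Irs1, in row 6061, lies in the 2300 rows that were left out, and as deposited it had values on arrays 2 and 4 alone (1.31 and -0.08).

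The dye orientations gave like values for the binding proteins. Igfbp4 averaged -2.65 with the transfected sample in Cy5 and -2.79 with it in Cy3, and Igfbp6 averaged -1.18 in Cy5 and -1.38 in Cy3. Irs1 averaged 0.20 in Cy5 and 0.29 in Cy3. Igf1r had the widest gap, with -0.40 in Cy5 and -1.15 in Cy3, and the dye term of its fit had an adjusted p of 0.874 (limma). The smallest adjusted p of that term over all 6327 genes was 0.868 (limma), so no gene stood out by it. Array 2 of Igf1r rests on 2 of its 4 probes, so its gap mixes dye orientation with a change of probes. Of those 2 probes, the one in row 17685 lay lower on average in Cy3, and the one in row 588 in Cy5. The Cy5 values of row 17685 include the commonest value of array 2. A model without the dye term has 1 more residual degree of freedom. In that model limma called 6 of 6327 genes (0.0948%), and Igfbp4 was one of them (adjusted p = 0.047). Over all alternatives tried, the adjusted p of Igfbp4 was between 0.047 and 0.777.

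**Figure D3:**
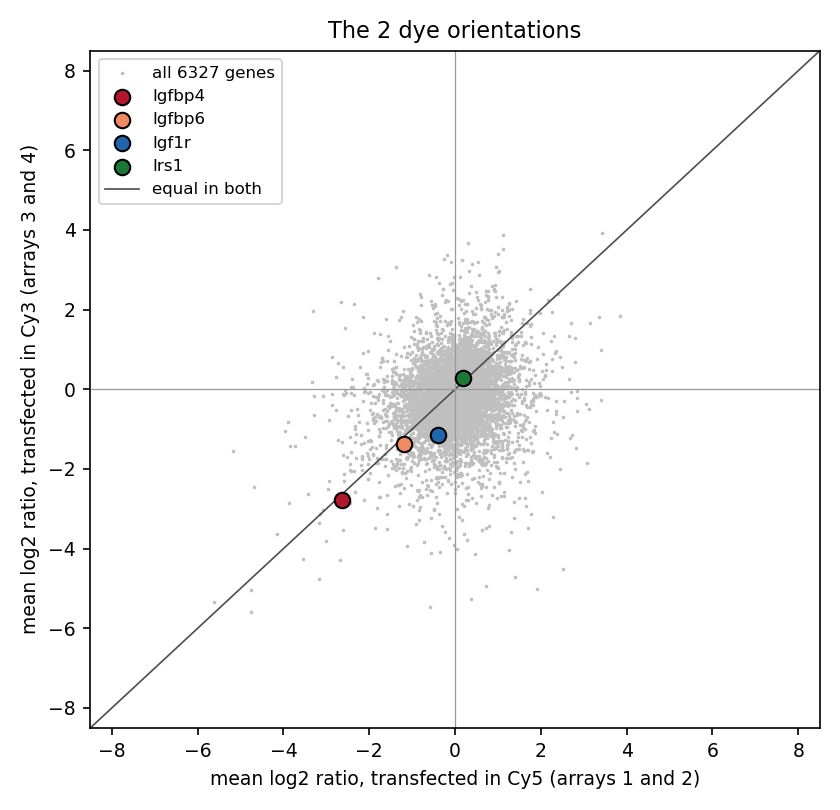
Mean log2 ratio with the transfected sample in Cy5 (x axis, arrays 1 and 2) against the mean with it in Cy3 (y axis, arrays 3 and 4) for all 6327 genes (grey) and the 4 IGF genes (coloured); the diagonal marks equal values. Igfbp4 (-2.65 and -2.79), Igfbp6 (-1.18 and -1.38) and Irs1 (0.20 and 0.29) lie close to the diagonal, and Igf1r (-0.40 and -1.15) lies further from it.

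The rest of the pathway was described from a list of 69 genes of IGF and insulin signalling that includes the 4 genes above. Of these, 52 were named on the array, 49 had a value in the rows used and 34 had one on all 4 arrays. Among the 34, 8 lay below 0 on all 4 arrays (all genes 13.0%), 6 above 0 on all 4 (all genes 9.58%) and 20 had mixed signs. With each array centred on its median, 5 lay below 0 and 4 above 0 on all 4. Limma called 0 of them, and 5 had an unadjusted p under 0.05, against 11.5% of all genes. The median of the 34 means was -0.12, near the -0.08 of all genes. Without the 4 genes above, the other 30 had a median of -0.09, with 16 means below 0 and 14 above.

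Among the other binding proteins, Igfbp2 had -0.07, -0.12, -1.38 and -0.09 on arrays 1 to 4, and Igfbp1 had 0.04, 1.91, -0.21 and -0.03. Both lay near 0 on 3 arrays and far from it on 1. Igfbp3, the main carrier of IGFs in blood, had values on arrays 1 and 4 alone (0.62 and -1.04), on either side of 0. Igfals, which encodes the acid-labile subunit that joins IGF and a binding protein in a complex, had 0.69, 0.14 and 0.32 on arrays 1, 3 and 4. Values near those of Igfbp4 or Igfbp6 on every array were thus not seen for these 4 genes.

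For the ligands, a value was present on 1 array for Igf2 (2.34 on array 1), which gives no check against a second array. Igf2r, which encodes the receptor that takes up and degrades IGF2, had 0.26, 0.09 and 0.70 on arrays 1, 3 and 4. These are means over 2 probes, of which 1 had -0.02 on array 1 and no value on array 4. The insulin receptor gene Insr had 1.86, -0.02 and -0.06 on arrays 1, 2 and 4, with array 1 apart from the others. Of the proteases, Pappa, which encodes the pappalysin that cuts IGFBP4, had -0.70, 2.58, -2.03 and -0.26, with array 2 on the other side of 0 from the rest. Arrays 2 and 4 of Pappa rest on 1 of its 2 probes. That probe had -0.02, 2.58, -1.01 and -0.26 on arrays 1 to 4. Htra1, a secreted serine protease gene, had 0.16, -0.65 and 0.22 on arrays 1, 2 and 4, and the kallikrein gene Klk1 had a value on array 1 alone (0.97).

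Substrates and adaptors downstream of the receptor showed 1 sign on all arrays in 7 of 9 genes tested, 5 below 0 (all genes 13.0%) and 2 above (all genes 9.58%). With each array centred on its median, 3 lay below 0 and 2 above on all arrays (all genes 11.0% and 11.2%), since array 4 of Grb2 then lay at 0.03 and that of Grb10 at 0.13. Crk, an adaptor gene, had -1.04, -1.93, -0.38 and -1.78 on arrays 1 to 4, with a mean of -1.29 ± 0.72 (SD over 4 arrays; limma, adjusted p = 0.381). Gab1, a docking protein gene, had -0.73, -4.25, -0.24 and -1.11, so that array 2 carried most of its mean of -1.58 ± 1.81. Grb10, which encodes an adaptor known to restrain IGF and insulin receptors, had a mean of -0.78 ± 0.58. Dok1, another docking protein gene, had 0.73, 0.43, 0.72 and 0.96, with a mean of 0.71 ± 0.21. Grb10 and Dok1 were picked after their values were seen, as lying on 1 side on every array. Grb10 and Grb2 are averages of 2 probes that did not fully match. The probe of Grb10 in row 19825 had 0.26 on array 4. The probe of Grb2 in row 15372 had 0.43 and 0.06 on arrays 1 and 4.

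In the phosphoinositide 3-kinase, AKT and mTOR arm, 13 of 14 genes tested had mixed signs. Of the 14, 0 lay below 0 on all 4 arrays (all genes 13.0%) and 1 above (all genes 9.58%). The 1 above was Akt1, which encodes a kinase activated downstream of phosphoinositide 3-kinase. It had 0.10, 0.56, 1.18 and 1.43, with a mean of 0.82 ± 0.60. After each array was centred on its median, array 1 of Akt1 lay at -0.004. Of the genes for receptor phosphatases and turnover, 3 of 4 lay above 0 on every array (all genes 9.58%). After centring 2 of 4 did (all genes 11.2%), as array 2 of Nedd4, a ubiquitin ligase gene, then lay at -0.015. The tightest was Ptpn1, which encodes a phosphatase of the insulin receptor, with 0.58, 0.53, 0.83 and 0.65. Akt1 and Ptpn1, too, were picked after their values were seen. Igf2bp3, which encodes a protein that binds Igf2 mRNA and is unrelated to the secreted binding proteins, had mixed signs and a mean of -0.34 ± 0.90. Its 2 probes, in rows 12979 and 14648, had 1.196 and -0.048 on array 4. The first had no value on array 2, and its -0.899 on array 3 is the commonest value of that array.

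**Figure D4:**
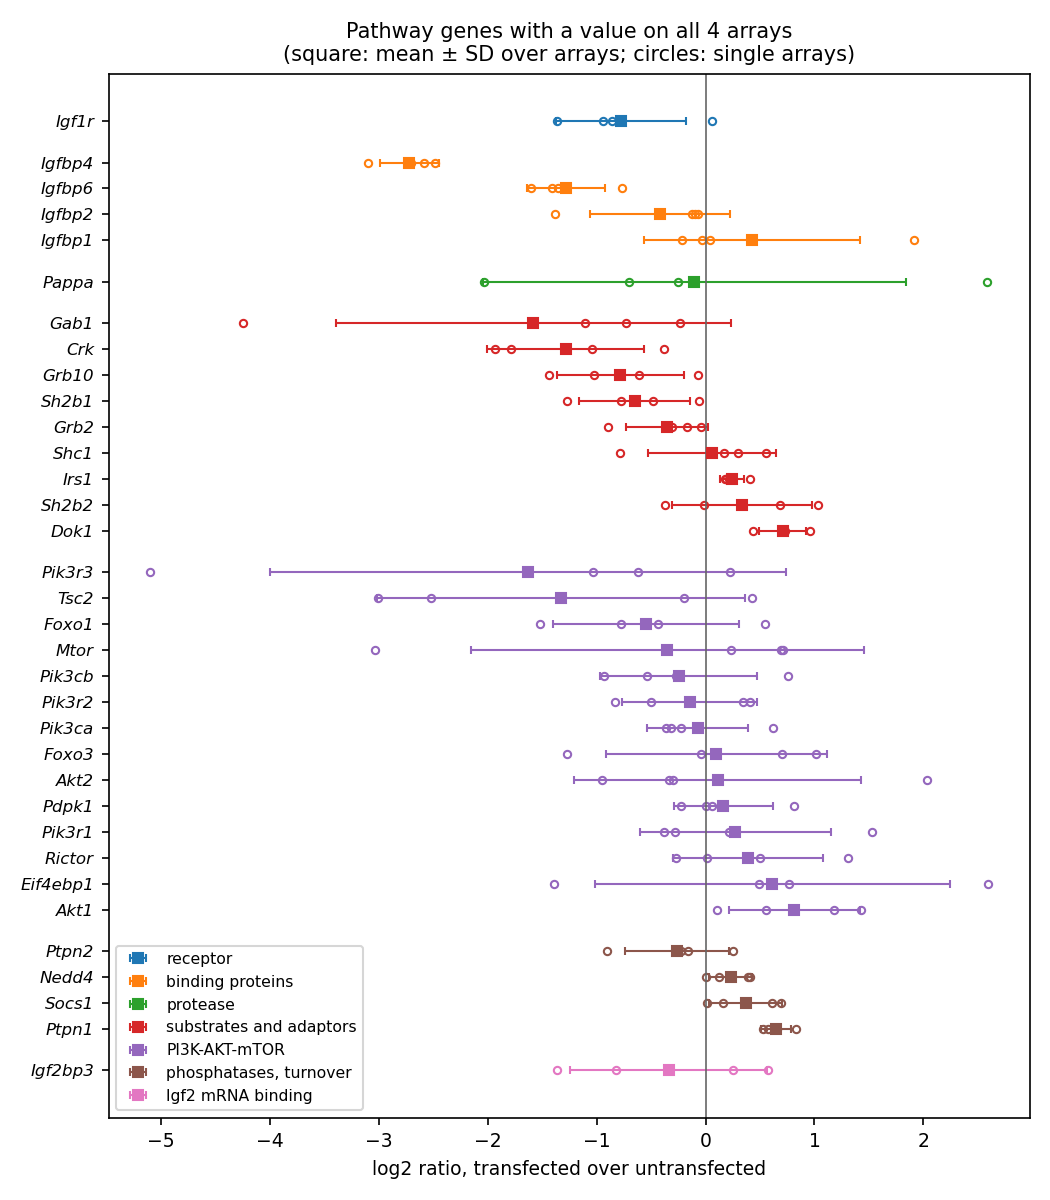
Log2 ratio (x axis, transfected over untransfected) of the 34 pathway genes with a value on all 4 arrays (rows, grouped by role); squares and bars are the mean ± SD over arrays and circles are single arrays. Igfbp4 (mean -2.72) is the lowest mean and its 4 circles lie close together, whereas those of Pappa, Gab1, Pik3r3, Tsc2, Mtor and Eif4ebp1 are spread over more than 3 units.

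The genes with the most similar values were sought for each member as those with the smallest Euclidean distance over the 4 arrays. For Igfbp4 they were Nr2f2 (-3.20, -2.73, -2.87 and -2.13; distance 0.74), an orphan nuclear receptor gene, and Pdia6 (-1.78, -3.11, -3.01 and -2.67; distance 0.93), a protein disulphide isomerase gene. For Igfbp6 they were Pecr, an enoyl-CoA reductase gene (distance 0.19), and Fth1, the ferritin heavy chain gene (0.28), with means of -1.27 and -1.28. For Igf1r they were Bcl2l12 (0.24) and Thegl (0.30), and for Irs1 the interferon gamma receptor gene Ifngr2 (0.07) and the translation factor gene Eif3k (0.11). The nearest gene to Igfbp4 was thus further away than those of the other 3 members. Such a distance depends on how many genes lie at that level. A mean as low as that of Igfbp4 was found for 19 genes, against 253 for Igfbp6 and 804 for Igf1r. The distance between Igfbp4 and Igfbp6 was 2.94.

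Between 76.8% and 94.6% of the 20355 spots had a value per array. The platform annotation used here names 0 probes for Erbb2, and the labels were not checked by the transfected gene. As ratios give no level, the fibroblast label could not be checked by its markers either; of 7 fibroblast markers tested 3 lay below 0 on all arrays (all genes 13.0%) and 1 above (all genes 9.58%). The 3 were Col1a1 (mean -4.91 ± 1.46), Fn1 (-3.89 ± 0.36) and Col1a2 (-3.36 ± 0.69, SD over 4 arrays each), which encode type I collagen chains and fibronectin, and all had a lower mean than Igfbp4. The 1 above was Vim (mean 0.66 ± 0.18), and the other 3 had mixed signs. Of the 7 means, 4 lay above 0, and their median was 0.24. The part of the 3 low genes in the values of the binding proteins was not tested. Of 14 markers of other cell types (leukocyte, epithelial, endothelial, muscle, adipocyte and hepatocyte) 4 lay below 0 on all arrays (all genes 13.0%) and 0 above.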

How the data were processed

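Each array's deposited column holds log2 ratios between its channels, shifted by a constant of its own. How the authors analysed the images, corrected background and normalized is not given in the sources used here. Their log2 scale was read from the values, in which a capped value lies 16.61 units from the commonest one on every array. Capped values (beyond 15 either way) were dropped. Against the probe names, arrays 2 to 4 were read 3 rows higher in rows 8001 to 18000 and 4 rows higher from row 18301, and 2300 rows with an unclear offset were left out.

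Probes with 1 symbol (14030) were averaged per gene and array. Genes with a value on all 4 arrays were fitted with limma 3.58.1 (R 4.3.3), as a mean plus a dye term, with p-values adjusted by Benjamini-Hochberg over all genes. The fit was also run on data simulated from limma's own variance model. Such a run checks the code and not whether that model holds for these arrays. Precision is limited by the number of arrays. Of the pathway list, all measured ligands, receptors, binding proteins and proteases were to be named, and others with 1 sign and a mean of at least 1 in size. Members, lists and row offsets were chosen with earlier results of these data known. Alternatives covered the dye term, centring, scaling, rows, capped values, probes, missing values, variances and each array left out.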

Additional observations from a re-analysis of the deposited data

Results flagged for a closer look

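Of 36 sets of 4 array values checked (34 pathway genes and 2 single probes of Igf1r), 4 had 1 array far from the other 3, where chance flags about 5% and the sets share arrays. Igfbp1 lay at 1.91 on array 2 and between -0.21 and 0.04 on the others. Igfbp2 lay at -1.38 on array 3 and between -0.12 and -0.07 on the others. Pik3ca, which encodes a catalytic subunit of phosphoinositide 3-kinase, lay at 0.62 on array 2 and between -0.36 and -0.23 on the others. Mtor, which encodes a growth-controlling kinase, lay at -3.04 on array 3 and between 0.24 and 0.71 on the others. Array 3 of Mtor rests on 1 of its 3 probes, in row 216, so the pattern mixes arrays with a change of probes. That probe had -0.375, 0.718, -3.036 and 0.639 on arrays 1 to 4. None of the 4 genes described in full was among those flagged.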

How the results depend on the processing

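Under other settings the 4 genes gave 58 values, of which 0 changed sign and 57 stayed on the same side of the threshold. The exception was Igfbp4 without the dye term (mean -2.72, limma adjusted p = 0.047), where it was also the 1 called gene of the pathway list. Igfbp4, Igfbp6 and Irs1 rest on 1 probe each. The settings for the dye term, capped values, probe median, missing values and variances therefore could not move their means. The Igf1r probe with a mean above 0, in row 9522, lacked array 2 and was not tested singly. The count of 0 sign changes is thus partly fixed by the design. The count of 0 genes called became 6 when the dye term was dropped, 6 when probes were tested singly, 3 with arrays scaled to a common spread and 3 with the median over the probes of a gene; the causes were not tested. It stayed at 0 at an adjusted p under 0.1, with capped ratios kept, with all rows as deposited and without any 1 array. The 730 genes with an unadjusted p under 0.05 became 355 without array 2 and 276 in the first 6000 rows, where fewer genes were tested. With any 1 array left out, the mean fitted by limma gives both dye orientations equal weight and is not the plain mean of the remaining arrays. This fitted mean was between -2.87 and -2.56 for Igfbp4 and between -1.49 and -1.08 for Igfbp6. It was between -1.003 and -0.55 for Igf1r and between 0.19 and 0.30 for Irs1. Igf1r had -0.19 with the rows as deposited and -1.42 with the probe in row 17685 on its own. Centring left 5 pathway genes below 0 and 4 above 0 on all arrays, against 11.0% and 11.2% of all genes. No paired analysis was possible because all arrays belong to 1 group of ratios. Spot intensities were not used here, so signal over background is unknown.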
